A study of Mus musculus with 15 samples.

Results

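Brown adipocytes store triglyceride in many small droplets and burn the fatty acids that these droplets release. The 10 genes described here encode the enzymes that release those fatty acids and the proteins that coat the droplets: Pnpla2, Lipe, Mgll, Abhd5, G0s2, Plin1, Plin2, Plin4, Plin5 and Cidec. They were taken by gene symbol from a table of 16774 genes measured in mouse brown adipose tissue, a fat depot that produces heat. All 10 symbols were present once, and all 10 genes passed the filter on low values in both groups.

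The series, per its title, concerns an environmental dose of bisphenol S and aging of brown adipose tissue. Bisphenol S (BPS) is an industrial replacement for bisphenol A. There were 7 libraries labelled BPS (replicates 1, 2, 3, 4, 5, 6 and 8) and 8 labelled vehicle (replicates 1 to 8), each with a mouse identifier of its own. The strain, genotype, sex and age of the mice, the dose, route and duration of treatment and the nature of the vehicle are not given in the sources used here, for either group. Poly(A) RNA of whole tissue was sequenced, and levels are FPKM, fragment counts that were scaled to transcript length and to the library total. In bulk tissue, fewer cells of a type and less RNA per cell cannot be told apart.

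Triglyceride is broken down in steps. PNPLA2 (adipose triglyceride lipase) removes the first fatty acid, LIPE (hormone-sensitive lipase) acts mainly on the diglyceride that remains, and MGLL splits the last monoglyceride into glycerol and a fatty acid. ABHD5 (CGI-58) activates PNPLA2 and G0S2 binds and inhibits it, while perilipins and CIDEC on the droplet surface control access of the lipases and the size of the droplet. In resting adipocytes PLIN1 holds ABHD5 away from PNPLA2, and phosphorylation by the cyclic AMP-dependent kinase releases it.

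Several members are textbook targets of the nuclear receptor PPARγ, which binds with RXR to repeats of the half-site AGGTCA, so the 250 bases before each annotated start were searched for that half-site. RefSeq (GRCm38.p6) gave 14 start sites for the 10 genes. A half-site lay in 3 of these 14 windows, those of Plin2, Abhd5 and one of the starts of Plin5, and in 14.0% of all 32851 mouse promoter windows of the same length, with both strands searched. The 3 windows that hold the half-site are printed with those of G0s2 and Cidec, which hold none and belong to the members with the smallest p-values below. Each is read 5′ to 3′ on the strand of its gene, ends at the base before the start, and has the half-site, or its reverse complement, in capitals. The windows are chr4:86670060-86670309 for Plin2 (minus strand), chr9:122351366-122351615 for Abhd5 (plus strand), chr17:56117549-56117798 for Plin5 (minus strand), chr1:193273189-193273438 for G0s2 (minus strand) and chr6:113435761-113436010 for Cidec (minus strand).
Plin2: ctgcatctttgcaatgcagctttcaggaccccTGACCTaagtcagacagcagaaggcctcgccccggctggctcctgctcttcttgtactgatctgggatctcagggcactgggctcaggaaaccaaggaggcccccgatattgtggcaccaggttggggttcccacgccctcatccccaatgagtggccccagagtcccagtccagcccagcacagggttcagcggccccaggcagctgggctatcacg
Abhd5: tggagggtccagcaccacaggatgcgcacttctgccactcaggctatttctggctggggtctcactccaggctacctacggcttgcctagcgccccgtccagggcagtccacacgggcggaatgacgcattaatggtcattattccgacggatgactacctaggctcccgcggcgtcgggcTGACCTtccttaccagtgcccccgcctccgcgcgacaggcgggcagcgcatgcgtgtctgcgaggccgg
Plin5: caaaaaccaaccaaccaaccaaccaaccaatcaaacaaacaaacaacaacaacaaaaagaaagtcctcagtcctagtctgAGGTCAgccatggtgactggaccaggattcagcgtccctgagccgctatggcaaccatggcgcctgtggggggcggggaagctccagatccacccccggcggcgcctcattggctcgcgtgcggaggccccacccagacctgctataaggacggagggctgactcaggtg
G0s2: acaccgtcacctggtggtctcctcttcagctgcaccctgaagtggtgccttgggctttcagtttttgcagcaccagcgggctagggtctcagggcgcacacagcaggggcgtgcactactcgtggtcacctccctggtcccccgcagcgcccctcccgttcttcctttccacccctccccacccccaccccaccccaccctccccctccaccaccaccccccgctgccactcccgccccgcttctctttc
Cidec: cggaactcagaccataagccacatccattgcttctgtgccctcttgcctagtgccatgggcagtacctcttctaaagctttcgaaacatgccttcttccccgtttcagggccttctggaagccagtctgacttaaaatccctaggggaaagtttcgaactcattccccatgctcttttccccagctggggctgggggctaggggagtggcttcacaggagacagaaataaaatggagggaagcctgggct
The match began at base -218 from the start in Plin2 and at -69 in Abhd5, in both as the reverse complement, and at -170 in Plin5, on the strand of the gene. The full PPAR element, AGGTCA repeated in the same orientation with 1 base of any kind between the copies, was in none of the 14 windows and in 0.033% of all windows. The E-box CACGTG was in the windows of Lipe and Mgll, at -155 and -44, and in 6.02% of all windows. None of the 14 windows held the cyclic AMP response element TGACGTCA or the TATA box letters TATAAA, which were in 1.55% and 12.4% of all windows. These matches describe letters in a window and say nothing of binding.

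Before the results, some libraries need to be described. In BPS replicates 4, 5, 6 and 8 the summed level of Ddx3y, Eif2s3y, Kdm5d and Uty, which are Y-linked, lay at 0.529% to 73.2% of the vehicle mean. It was 97.4% to 100.4% in BPS replicates 1, 2 and 3 and 80.4% to 117% in the 8 vehicle libraries. The X-linked gene Kdm6a was at 6.83 to 9.92 FPKM in those 4 libraries, 4.55 to 4.66 FPKM in the other 3 BPS libraries and 3.84 to 5.39 FPKM in vehicle. White adipocyte markers, of which 12 of 16 were in the table, summed to 3351 to 8129 FPKM in the same 4 libraries, 560.3 to 2079 FPKM in BPS replicates 1, 2 and 3 and 843 to 3436 FPKM in vehicle. Brown adipocyte markers, 12 genes, summed to 1480 to 13239 FPKM in the same 4 libraries. They summed to 14345 to 21045 FPKM in BPS replicates 1, 2 and 3 and 10429 to 23143 FPKM in vehicle. By this sum BPS replicates 4 (1480 FPKM) and 8 (7949 FPKM) lay below every vehicle library. By the mean log2(FPKM + 1) of the same 12 genes, vehicle ranged from 5.436 to 6.667. On that scale BPS replicate 4, at 4.511, lay below vehicle, and BPS replicate 8, at 5.515, lay within it. Of these markers, Ucp1 was present in every library and lowest, at 82.3 FPKM, in BPS replicate 4, against a range of 358 to 2321 FPKM in vehicle. Skeletal muscle markers, 18 genes, summed to 107 to 15075 FPKM in BPS and 301 to 82464 FPKM in vehicle, with vehicle replicates 2, 6 and 8 the highest. No marker of these lists was at 0 in all libraries of a group, except Hoxc9 in BPS replicates 1, 2 and 3. The change of each member is therefore also given without BPS replicates 4, 5, 6 and 8, and, as a fit added after the data were seen, without BPS replicates 1, 2 and 3. The part of these transcripts in the results was not tested.

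The 10 genes differed widely in abundance, and Pnpla2, Cidec, Plin1, Plin5 and Abhd5 held the same places in both groups. Pnpla2 was the most abundant, with a mean of 1249 FPKM in BPS and 827 FPKM in vehicle, and stood at rank 127 of the table in BPS and 190 in vehicle. It exceeded Cidec, the next in order, in 7 of 7 BPS and 8 of 8 vehicle libraries. Abhd5, which encodes the activator of PNPLA2, was the least abundant, with a mean of 55.5 FPKM in BPS and 42.2 FPKM in vehicle. Lipe and G0s2 were neighbours in BPS that did not separate, with Lipe above G0s2 in 4 of 7 libraries. Plin2 and Plin1 did not separate in BPS either, with Plin2 above Plin1 in 4 of 7 libraries, whereas Plin2 stood at place 3 of the 10 in vehicle and Plin1 at place 6. Plin4 and Mgll exchanged places, with Plin4 above Mgll in 4 of 7 BPS libraries and Mgll above Plin4 in 5 of 8 vehicle libraries. Together the 10 genes held 0.435% to 0.770% of the summed FPKM of a BPS library and 0.210% to 0.495% of that of a vehicle library.

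No member passed the adjusted threshold between BPS and vehicle with all 15 libraries, though most had higher means in BPS. The test was limma on log2(FPKM + 1) with Benjamini-Hochberg adjustment over all 12156 genes tested and a threshold of 0.05, and a log2 change is BPS over vehicle on that scale. It called 0 of the 10 members and 0.411% of all genes tested. At an unadjusted p under 0.05 it counted 8 of the 10 members and 23.1% of all genes. The log2 change was positive for 8 of 10 members, with a median of 0.51 over the 10, and positive for 58.5% of all genes tested, with a median of 0.05. The members were chosen with earlier results of these data known, and many of them varied together over the 15 libraries. Their counts are therefore descriptive and are not separate results. In the authors' deposited table Cidec had a q of 0.030 and was the only member under 0.05, a threshold that 5.74% of the genes with a q in that table passed. The limma p-values set the difference between the group means against the spread of these libraries within the groups. For each gene that spread was drawn toward a trend with level over all genes tested. For no member did all 7 BPS libraries lie apart from all 8 vehicle libraries, as they did for 0.576% of all genes tested.

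**Figure D1:**
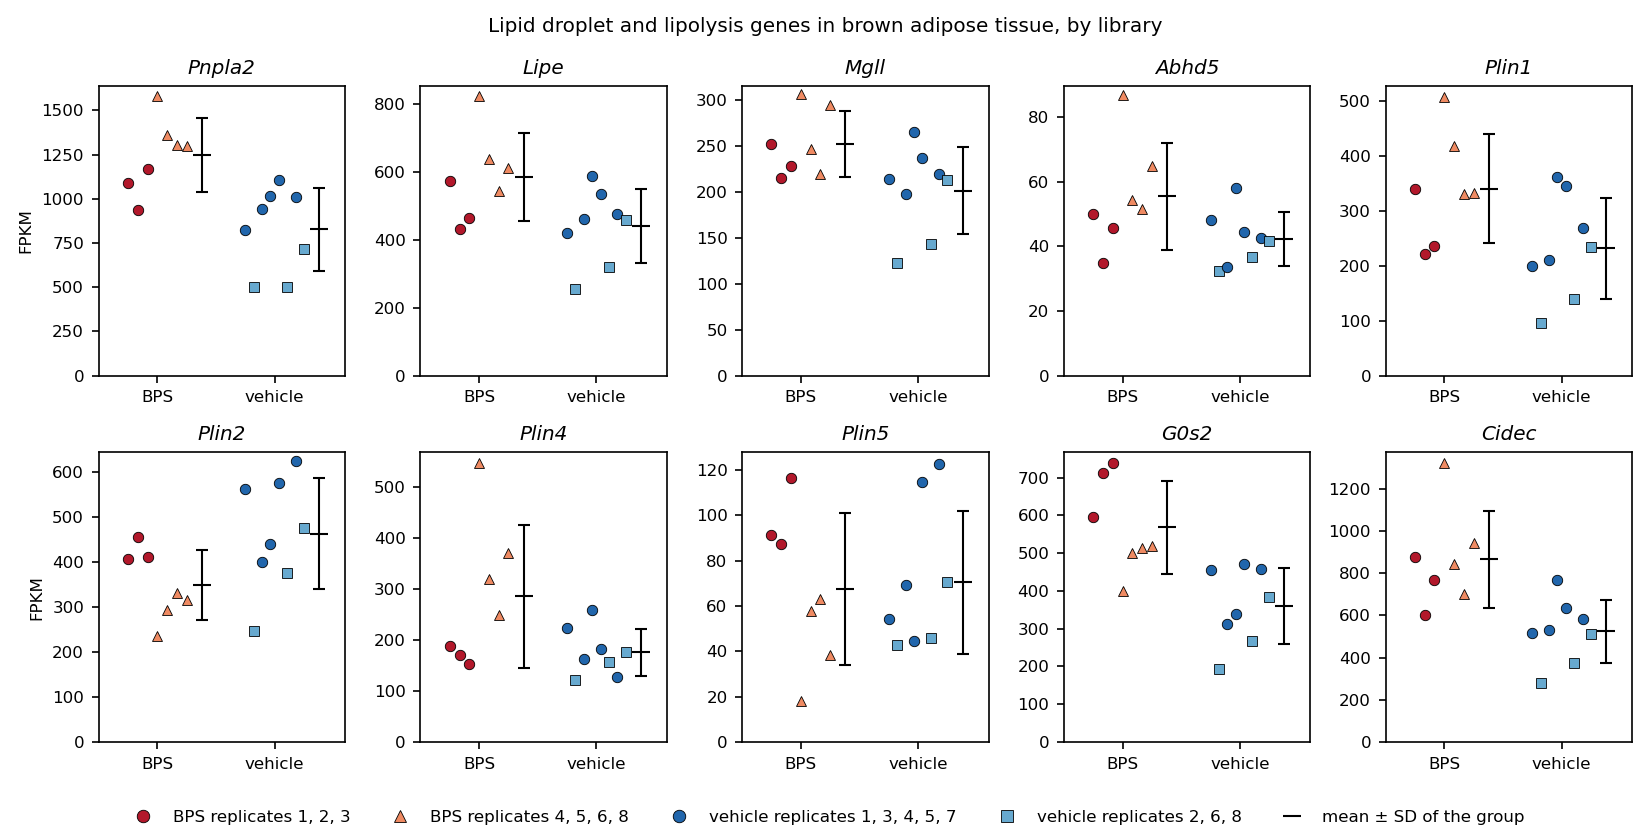
FPKM (linear axes from 0) of each of the 10 genes in each BPS and vehicle library, with the mean and SD of each group (7 BPS, 8 vehicle libraries). BPS replicates 4, 5, 6 and 8 lie above replicates 1, 2 and 3 for Pnpla2, Abhd5 and Plin4 and below them for Plin2, Plin5 and G0s2, and the groups overlap in every panel.

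Among the lipases, Pnpla2 had the largest log2 change. It had a lowest value of 939.6, a median of 1297 and a highest of 1584 FPKM in BPS, against 502, 882 and 1107 FPKM in vehicle. In BPS, 5 of 7 libraries lay above the highest vehicle library, and vehicle replicates 2 and 6 were the lowest of all. The log2 change was 0.63 ± 0.183 (limma SE, 95% interval 0.25 to 1.02), with a limma adjusted p of 0.102. Without BPS replicates 4, 5, 6 and 8 it was 0.42 (adjusted p = 0.678), and without BPS replicates 1, 2 and 3 it was 0.80 (adjusted p = 0.0222). All of BPS replicates 4, 5, 6 and 8 exceeded every vehicle library for Pnpla2, as they did for 9.8% of all genes tested.

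Lipe, the diglyceride step, had a smaller log2 change. Its lowest, median and highest values were 432, 573 and 825 FPKM in BPS, against 254, 460.1 and 589.7 FPKM in vehicle. The groups overlapped, with 3 of 7 BPS libraries above the highest vehicle library. The log2 change was 0.43 ± 0.177 (limma SE, 95% interval 0.05 to 0.80; limma adjusted p = 0.175), 0.19 without BPS replicates 4, 5, 6 and 8 (adjusted p = 0.809) and 0.60 without replicates 1, 2 and 3 (adjusted p = 0.0503). Mgll, the monoglyceride step, had 215, 247 and 306 FPKM as its lowest, median and highest values in BPS, against 122, 213 and 265 FPKM in vehicle. Every BPS library lay above the vehicle mean of 201.5 FPKM, but only 2 of 7 lay above the highest vehicle library. Its log2 change was 0.35 ± 0.152 (limma SE, 95% interval 0.03 to 0.67), with a limma adjusted p of 0.191. It was 0.24 without BPS replicates 4, 5, 6 and 8 (adjusted p = 0.765) and 0.43 without replicates 1, 2 and 3 (adjusted p = 0.116). Mgll had the narrowest relative spread of the lipases among the BPS libraries, with a coefficient of variation of 14.2% there and 23.4% in vehicle.

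The activator and the inhibitor of PNPLA2 behaved differently between the BPS libraries. Abhd5 had 35.0, 51.8 and 87.0 FPKM as its lowest, median and highest values in BPS, against 32.5, 42.1 and 58.1 FPKM in vehicle. Its groups overlapped almost wholly apart from BPS replicates 4 and 8, the 2 BPS libraries above the highest vehicle library. For Abhd5 the log2 change was 0.36 ± 0.165 (limma SE, 95% interval 0.01 to 0.71; limma adjusted p = 0.205), 0.05 without BPS replicates 4, 5, 6 and 8 (adjusted p = 0.927) and 0.59 without replicates 1, 2 and 3 (adjusted p = 0.0234).

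G0s2 had 399, 518 and 739 FPKM as its lowest, median and highest values in BPS, against 193, 362 and 471 FPKM in vehicle. In BPS, 6 of 7 libraries lay above the highest vehicle library, the most of any member, and only BPS replicate 4 lay within the vehicle range. G0s2 had a log2 change of 0.68 ± 0.191 (limma SE, 95% interval 0.28 to 1.09), with a limma adjusted p of 0.0955. Unlike the log2 changes of the lipases, that of G0s2 was larger without BPS replicates 4, 5, 6 and 8, at 0.97 ± 0.246 (limma SE, adjusted p = 0.231), against 0.47 without replicates 1, 2 and 3 (adjusted p = 0.131). BPS replicates 1, 2 and 3 held 595, 713 and 739 FPKM, all above every vehicle library, a pattern shared by 1.92% of all genes tested.

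The ratio of 2 genes within a library nearly cancels any scaling of that library, so 3 ratios were compared with two-sided exact permutation tests over all ways of assigning the 15 libraries to groups of 7 and 8, with p-values adjusted over the 3. The log2 ratio of G0s2 to Pnpla2, inhibitor to lipase, averaged -1.15 ± 0.538 in BPS and -1.20 ± 0.300 in vehicle (SD, n = 7 and 8). Its difference of 0.05 was far within this spread (exact p = 0.823). The BPS libraries fell on either side of the vehicle mean, with -0.64 ± 0.236 in replicates 1, 2 and 3 and -1.52 ± 0.313 in replicates 4, 5, 6 and 8 (SD, n = 3 and 4). Without replicates 4, 5, 6 and 8 the difference from vehicle was 0.55 (exact p = 0.0242, adjusted p = 0.0727), and without replicates 1, 2 and 3 it was -0.33 (exact p = 0.115). The log2 ratio of Abhd5 to Pnpla2, activator to lipase, averaged -4.50 ± 0.204 in BPS and -4.23 ± 0.368 in vehicle (SD, n = 7 and 8). That difference of -0.27 had an exact p of 0.106 (adjusted p = 0.159). It was -0.36 without BPS replicates 4, 5, 6 and 8 (exact p = 0.145) and -0.20 without replicates 1, 2 and 3 (exact p = 0.327).

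**Figure D2:**
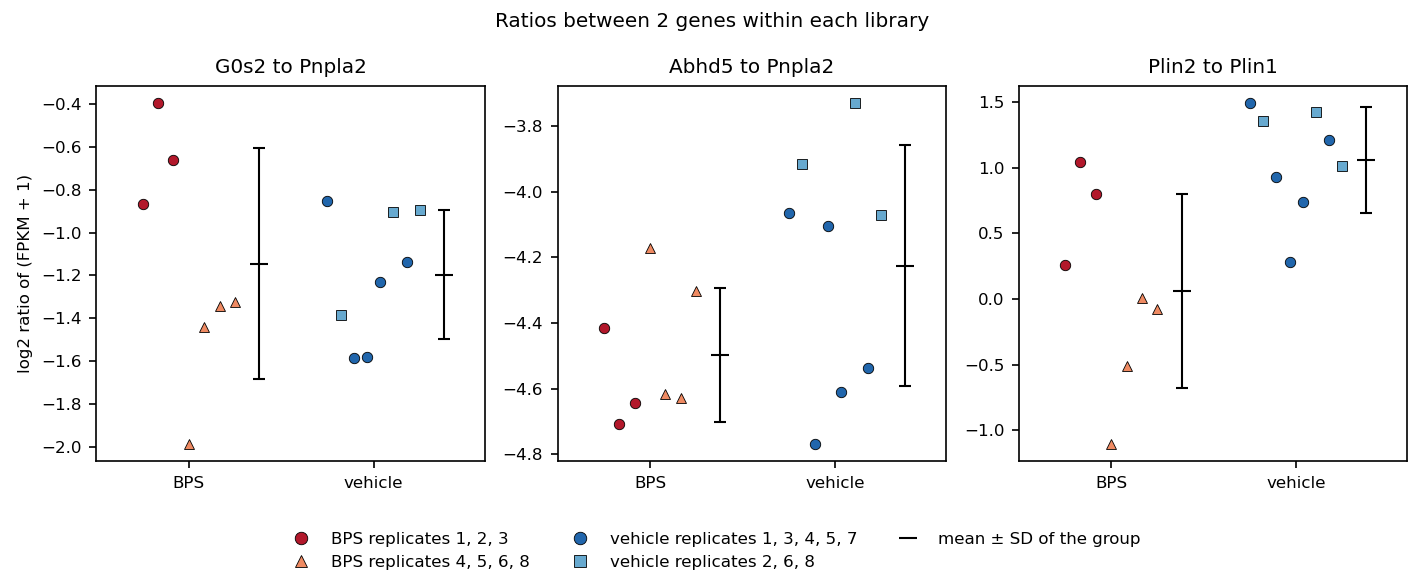
Log2 ratios of FPKM + 1 between 2 genes within each library, with the mean and SD of each group (7 BPS, 8 vehicle libraries). For Plin2 to Plin1, 5 of the 7 BPS libraries lie below every vehicle library, and for G0s2 to Pnpla2 the BPS libraries split into replicates 1, 2 and 3 above replicates 4, 5, 6 and 8.

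Plin1 and Plin2, the perilipin of mature adipocytes and the perilipin found in most cell types, had changes of opposite sign. Plin1 had 221, 333 and 507 FPKM as its lowest, median and highest values in BPS, against 96.5, 223 and 361 FPKM in vehicle. Its groups overlapped, with BPS replicates 4 and 5 above the highest vehicle library and vehicle replicates 2 and 6 the lowest. For Plin1 the log2 change was 0.61 ± 0.263 (limma SE, 95% interval 0.05 to 1.17), with a limma adjusted p of 0.186. Without BPS replicates 4, 5, 6 and 8 it was 0.28 (adjusted p = 0.814), and without replicates 1, 2 and 3 it was 0.86 (adjusted p = 0.0579).

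Plin2 had 235, 332 and 457 FPKM as its lowest, median and highest values in BPS, against 248, 458 and 625.03 FPKM in vehicle. None of the 7 BPS libraries reached the vehicle mean of 463 FPKM, although vehicle replicate 2 lay low among them. Its log2 change was -0.38 ± 0.190 (limma SE, 95% interval -0.78 to 0.02; limma adjusted p = 0.240). It was -0.07 without BPS replicates 4, 5, 6 and 8 (adjusted p = 0.926) and -0.61 without replicates 1, 2 and 3 (adjusted p = 0.0542).

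Within libraries, the balance of the pair differed between the groups. The log2 ratio of Plin2 to Plin1 averaged 0.06 ± 0.737 in BPS and 1.06 ± 0.405 in vehicle (SD, n = 7 and 8). Its difference of -0.995 passed the threshold (exact p = 0.0059, adjusted p = 0.0177). That adjustment covers the 3 ratios only, and no other pairs of genes were compared. The ratio was -1.11, -0.51, 0.01 and -0.08 in BPS replicates 4, 5, 6 and 8, and 0.26, 1.05 and 0.80 in BPS replicates 1, 2 and 3, while the vehicle libraries lay between 0.28 and 1.49. In 5 of 7 BPS libraries the ratio was thus below the lowest vehicle library. The difference was -0.35 without BPS replicates 4, 5, 6 and 8 (exact p = 0.242) and -1.48 without replicates 1, 2 and 3 (adjusted p = 0.0061), so its size rests on the 4 libraries that stood apart. Without vehicle replicates 2, 6 and 8, which had the most muscle transcripts, it was -0.87 (exact p = 0.0455, adjusted p = 0.136). A ratio alone does not show which of its genes changed. With all libraries the log2 changes were 0.61 for Plin1 and -0.38 for Plin2, on the same scale. Together they make up the difference of -0.995, and neither passed the limma threshold.

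Plin4 and Plin5 lie side by side on chromosome 17 on the minus strand, Plin4 at chr17:56100587-56109948 and Plin5 at chr17:56111597-56117606 (RefSeq, GRCm38.p6). By their GENCODE M21 bounds (GRCm38), which are not printed here, they lie 1797 bases apart. Within BPS, replicates 4, 5, 6 and 8 were the higher for Plin4 and the lower for Plin5. PLIN4 coats small, newly formed droplets, and PLIN5, a perilipin of oxidative tissues, sits on droplets at mitochondria. Plin4 had 154, 248 and 547 FPKM as its lowest, median and highest values in BPS, against 122.7, 169.9 and 259 FPKM in vehicle. Values of BPS replicates 1, 2 and 3 lay inside the vehicle range, and the 3 libraries above it were BPS replicates 4, 5 and 8. The log2 change of Plin4 was 0.60 ± 0.252 (limma SE, 95% interval 0.06 to 1.13), with a limma adjusted p of 0.181. It was -0.01 without BPS replicates 4, 5, 6 and 8 (adjusted p = 0.989), and 1.05 without replicates 1, 2 and 3 (adjusted p = 0.0076).

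Plin5 had 18.0, 63.1 and 117 FPKM as its lowest, median and highest values in BPS, against 42.6, 61.7 and 122.7 FPKM in vehicle. Means were close, at 67.5 ± 33.6 FPKM in BPS and 70.5 ± 31.6 FPKM in vehicle (SD, n = 7 and 8), but the BPS libraries covered a wider relative range. The log2 change of -0.15 ± 0.357 (limma SE, 95% interval -0.91 to 0.61; limma adjusted p = 0.816) had the widest interval of the 10 genes. It was 0.57 without BPS replicates 4, 5, 6 and 8 (adjusted p = 0.662) and -0.69 without replicates 1, 2 and 3 (adjusted p = 0.180). BPS replicates 1, 2 and 3 averaged 98.4 ± 15.8 FPKM, and replicates 4, 5, 6 and 8 averaged 44.3 ± 20.6 FPKM (SD, n = 3 and 4).

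Cidec, whose protein (FSP27 in mice) joins droplets into larger ones, had the largest log2 change and the smallest adjusted p of the 10 genes. Its lowest, median and highest values were 603, 844 and 1321 FPKM in BPS, against 282, 523 and 766 FPKM in vehicle. In BPS, 5 of 7 libraries lay above the highest vehicle library, 2 of them among replicates 1, 2 and 3 and 3 among replicates 4, 5, 6 and 8. The log2 change was 0.74 ± 0.200 (limma SE, 95% interval 0.31 to 1.16), with a limma adjusted p of 0.0930. It kept its sign on each side of the split, at 0.55 without BPS replicates 4, 5, 6 and 8 (adjusted p = 0.624) and 0.875 without replicates 1, 2 and 3 (adjusted p = 0.0222).

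**Figure D3:**
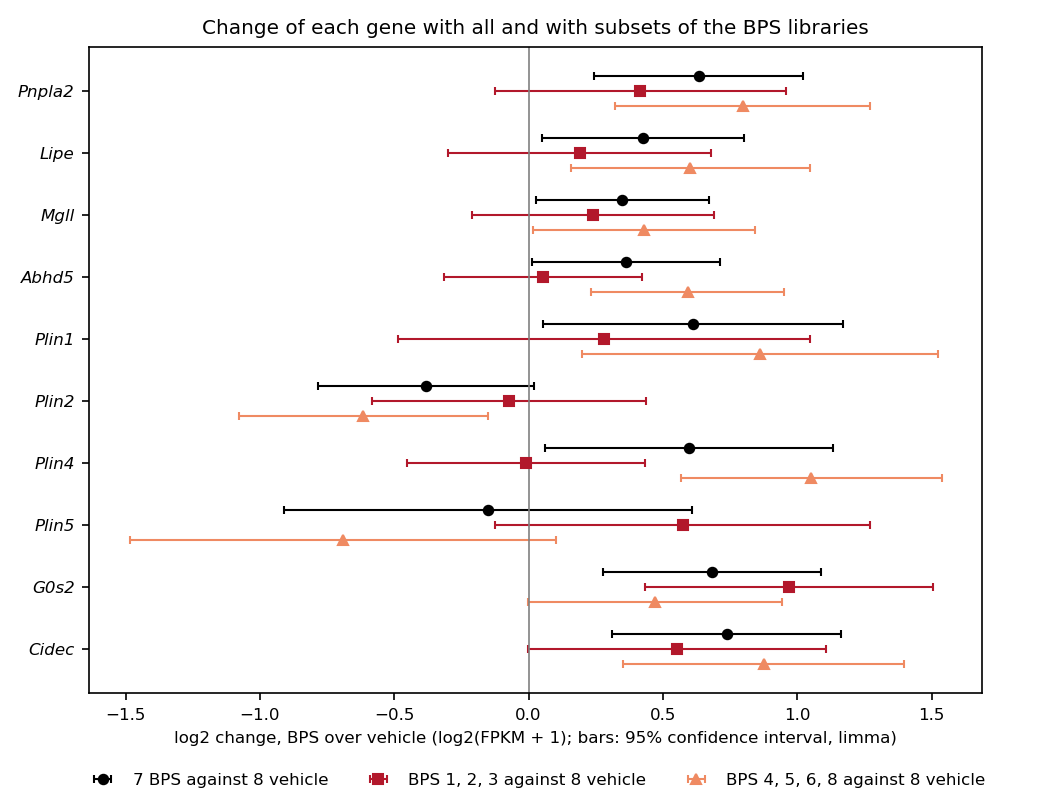
Log2 change, BPS over vehicle, of each gene on the log2(FPKM + 1) scale with its 95% limma interval, for all 7 BPS libraries, for BPS replicates 1, 2 and 3 and for BPS replicates 4, 5, 6 and 8, each against the same 8 vehicle libraries. Plin5 lies at 0.57 with replicates 1, 2 and 3 and at -0.69 with replicates 4, 5, 6 and 8, and Pnpla2, Lipe, Mgll, Abhd5, Plin1, G0s2 and Cidec have changes above 0 in all 3 comparisons, with intervals that cross 0 in some of them.

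The 3 fits share their vehicle libraries, and their values are given side by side. With BPS replicates 4, 5, 6 and 8 alone, 4 of the 10 members passed the threshold (Pnpla2, Abhd5, Plin4 and Cidec), all higher in BPS, where 23.2% of all genes tested were called and 17.1% were called higher. With BPS replicates 1, 2 and 3 alone, 0 of the 10 passed (limma, background 0.271%) and 1, G0s2, had an unadjusted p under 0.05, against 8.03% of all genes. The median log2 change over the members was 0.60 with replicates 4, 5, 6 and 8 and 0.26 with replicates 1, 2 and 3, while the medians over all genes were 0.07 and 0.01. Replicates 4, 5, 6 and 8 did not overlap with replicates 1, 2 and 3 for 6 of the 10 members, and for 34.2% of all genes tested. Of those 6, Pnpla2, Abhd5 and Plin4 were higher in replicates 4, 5, 6 and 8 and Plin2, Plin5 and G0s2 were lower. The ratio of the mean in these 4 libraries to the mean in the other 3 was largest for Plin4, at 2.17, and smallest for Plin5, at 0.451. It was 1.49 for Plin1, 1.34 for Lipe, 1.27 for Cidec and 1.15 for Mgll, whose values overlapped between the 2 sets.

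BPS replicate 4, the library lowest in Y-linked transcripts, was the highest or lowest BPS library for each member. It was the highest of all 15 libraries for Pnpla2, Lipe, Mgll, Abhd5, Plin1, Plin4 and Cidec, the lowest of all for Plin2 and Plin5, and the lowest of BPS for G0s2. How often BPS replicate 4 was so placed over all genes tested was not counted, so its place is not read as a trait of the members. The 12 brown adipocyte markers summed to 1480 FPKM in that library, against 10429 to 23143 FPKM in vehicle. Without BPS replicate 4 the log2 changes were 0.76 for G0s2, 0.63 for Cidec, 0.57 for Pnpla2, 0.51 for Plin1 and 0.42 for Plin4. They were 0.34 for Lipe, 0.30 for Mgll, 0.25 for Abhd5, 0.13 for Plin5 and -0.29 for Plin2. In that fit 0 of the 10 passed the threshold, as with all libraries, and 0.0329% of all genes tested passed it.

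Vehicle replicates 2 and 6 were at the other end. Both lay below the other 6 vehicle libraries for 7 of the 10 members, and for 22.1% of all genes tested, and their mean was 43.7% of that of the other 6 for Plin1, the lowest share, and 77.6% for Abhd5, the highest. Skeletal muscle markers summed to 82464 FPKM in vehicle replicate 2 and 79144 FPKM in vehicle replicate 6. Adipocyte markers (10 genes) summed to 34840 and 38243 FPKM in these 2 libraries and to 51534 to 62137 FPKM in the other 6 vehicle libraries. They summed to 55553 to 77409 FPKM in BPS. By the mean log2(FPKM + 1) of these 10 genes, BPS (9.707 to 10.048) lay inside the vehicle range (8.898 to 10.11). Without vehicle replicates 2, 6 and 8 the median log2 change over the members was 0.27, and limma called 0 of the 10 and 0.0% of all genes, with 4 of the 10 at an unadjusted p under 0.05 against 11.8% of all genes. G0s2 had a log2 change of 0.47 (adjusted p = 0.393) and Cidec one of 0.49 (adjusted p = 0.394) in that fit. Plin2 differed more in it, at -0.58 (adjusted p = 0.379). The part of muscle transcripts in these values was not tested.

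**Figure D4:**
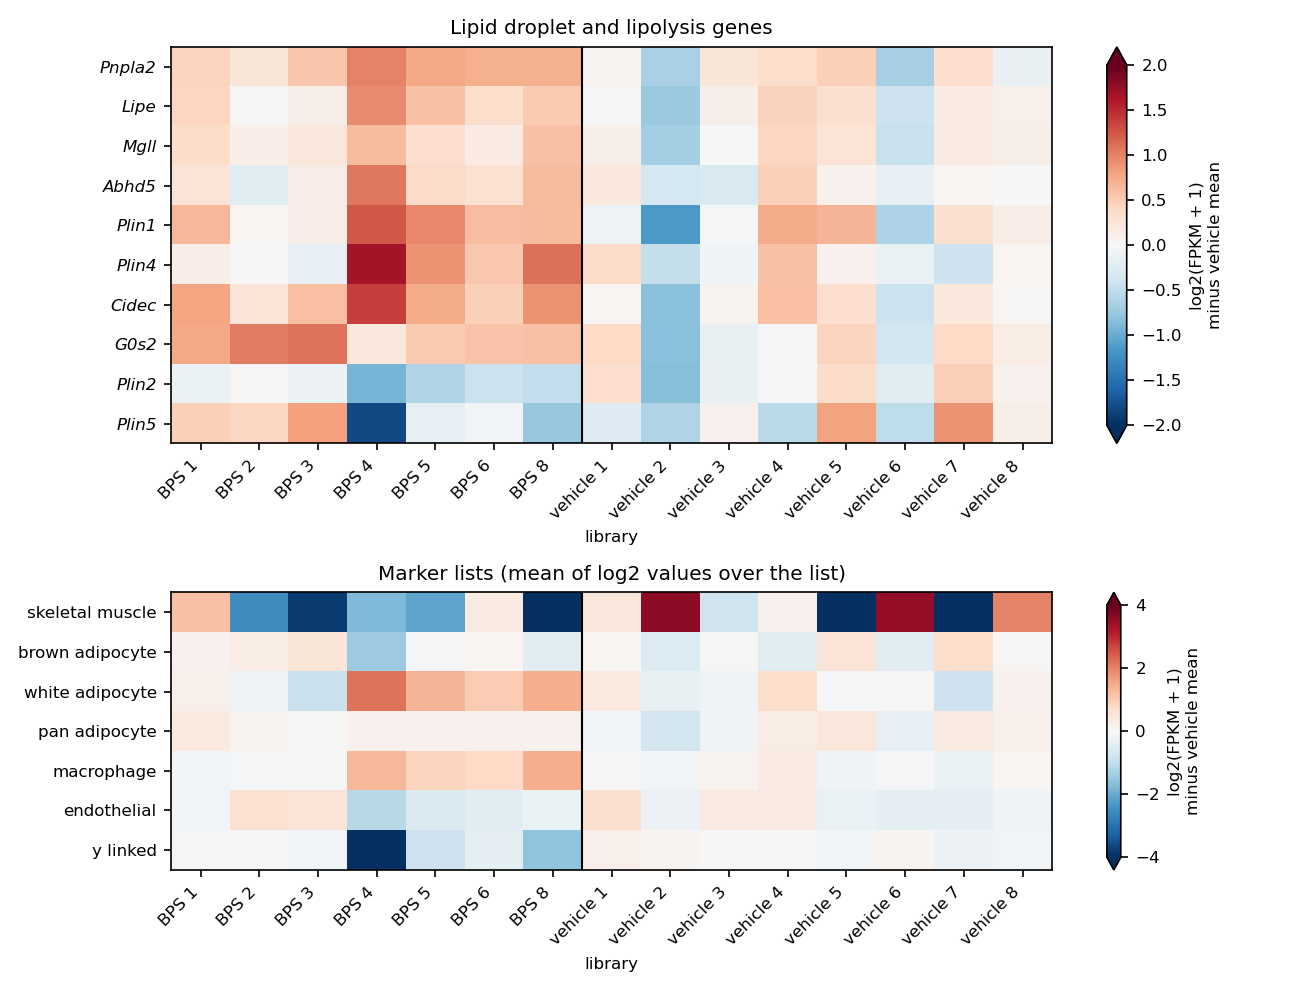
Colour maps of log2(FPKM + 1) minus the vehicle mean in each library, for the 10 genes (above) and for marker lists averaged over their genes (below); columns are the 7 BPS libraries, then the 8 vehicle libraries, and colours saturate at the ends of each scale. On this averaged log2 scale BPS replicates 4, 5, 6 and 8 are high for white adipocyte and macrophage markers and low for Y-linked genes. The summed FPKM of the macrophage markers is not higher in them than in BPS replicates 1, 2 and 3. Vehicle replicates 2, 6 and 8 are high for skeletal muscle markers.

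Markers of other cells moved with the split of the BPS libraries. The mean log2 level of 10 macrophage markers was 4.47 to 5.12 in BPS replicates 4, 5, 6 and 8, 3.55 to 3.68 in BPS replicates 1, 2 and 3 and 3.41 to 3.998 in vehicle. The summed FPKM of these markers ran the other way within BPS. It was 2154 to 2542 (median 2284) in those 4 libraries. In BPS replicates 1, 2 and 3 it was 2530.3 to 3131 (median 3089), barely overlapping with those. In vehicle it was 1696 to 2893 (median 2063). Endothelial markers, 8 genes, summed to 291 to 531 FPKM in those 4 libraries, 590.1 to 1022 FPKM in replicates 1, 2 and 3 and 515 to 1202 FPKM in vehicle. The adipocyte hormone gene Lep was at 96.0 to 270.6 FPKM in the 4 libraries, 12.98 to 42.3 FPKM in BPS replicates 1, 2 and 3 and 16.7 to 53.9 FPKM in vehicle. Their part in the values of the 10 genes was not tested.

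The rest of the pathway, 80 genes in 4 lists of which 75 were tested, had no gene past the threshold with all libraries. The limma test called 0 of 75, and 0.411% of all genes. The 75 had 19 genes at an unadjusted p under 0.05 (25.3%, against 23.1% of all genes), 48 positive changes (64.0%, against 58.5% of all genes) and a median log2 change of 0.07, against 0.05 over all genes. Other droplet proteins had 15 of 20 positive changes and a median of 0.12. Bscl2, which encodes seipin and acts where droplets form, averaged 198 ± 19.9 FPKM in BPS and 142 ± 37.5 FPKM in vehicle (SD, n = 7 and 8), a log2 change of 0.52 (limma adjusted p = 0.105). Vps13c, a lipid transfer protein, had the smallest p of the droplet list, with a log2 change of 0.33 (adjusted p = 0.0789), and Fitm2, which partitions triglyceride into droplets, had 0.43 (adjusted p = 0.139). Without BPS replicates 4, 5, 6 and 8 the changes were 0.46 for Bscl2, 0.25 for Vps13c and 0.03 for Fitm2.

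Receptors, cyclic AMP enzymes and insulin signalling genes that control lipolysis had 15 of 27 positive changes (55.6%, against 58.5% of all genes) and a median of 0.01. The 3 genes of smallest p in this list encode phosphodiesterases, which degrade cyclic AMP, and none passed the threshold. Pde4b averaged 7.25 ± 3.68 FPKM in BPS and 13.5 ± 4.39 FPKM in vehicle (SD, n = 7 and 8), a log2 change of -0.89 (limma adjusted p = 0.110), and Pde4d had a log2 change of -0.55 (adjusted p = 0.102). Pde3b, through which insulin restrains lipolysis, averaged 104 ± 31.2 FPKM in BPS and 68.8 ± 16.3 FPKM in vehicle (SD, n = 7 and 8), a log2 change of 0.58 (adjusted p = 0.121). Without BPS replicates 4, 5, 6 and 8 the changes were -0.24 for Pde4b, -0.39 for Pde4d and 0.17 for Pde3b.

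Other hydrolases and genes handling the products of lipolysis had 12 of 16 positive changes (75.0%, against 58.5% of all genes) and a median of 0.21. Ces1d, a carboxylesterase that hydrolyses triglyceride, averaged 1314 ± 135 FPKM in BPS and 968 ± 267.8 FPKM in vehicle (SD, n = 7 and 8), a log2 change of 0.49 (limma adjusted p = 0.135). Abhd12, a lysophospholipase, had a log2 change of 0.36 (adjusted p = 0.110) and Acsl1, which activates fatty acids to acyl-CoA, 0.38 (adjusted p = 0.182). These changes were 0.37 for Ces1d, 0.18 for Abhd12 and 0.29 for Acsl1 without BPS replicates 4, 5, 6 and 8. Among 12 transcriptional regulators, 6 changes were positive and the median was 0.05. Nr1h3 (LXRα) had a log2 change of 0.33 (adjusted p = 0.117), Rxra, the partner of PPARγ, 0.42 (adjusted p = 0.153) and Ppard 0.23 (adjusted p = 0.158). They were 0.39 for Nr1h3, 0.08 for Rxra and 0.07 for Ppard without BPS replicates 4, 5, 6 and 8.

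With BPS replicates 4, 5, 6 and 8 alone, 11 of the 75 pathway genes were called higher and 6 lower, near the background of that fit, which called 23.2% of all genes and 17.1% higher. Fitm2 averaged 46.1 ± 9.10 FPKM in these 4 libraries and 27.4 ± 3.53 FPKM in vehicle (SD, n = 4 and 8; limma adjusted p = 0.0031), while BPS replicates 1, 2 and 3 averaged 27.9 FPKM. Pde4b averaged 4.54 ± 1.54 FPKM in these 4 libraries and 13.5 ± 4.39 FPKM in vehicle (SD, n = 4 and 8; limma adjusted p = 0.0033). Pde3b averaged 125 ± 21.9 FPKM in these 4 libraries and 68.8 ± 16.3 FPKM in vehicle (SD, n = 4 and 8; limma adjusted p = 0.0083). Gk, glycerol kinase, averaged 7.65 ± 2.60 FPKM in them and 16.0 ± 6.67 FPKM in vehicle (SD, n = 4 and 8; limma adjusted p = 0.0385), with 29.9 FPKM in BPS replicates 1, 2 and 3. BPS replicates 1, 2 and 3 averaged 10.9 FPKM for Pde4b and 76.1 FPKM for Pde3b. These 4 genes were chosen after their values were seen. With BPS replicates 1, 2 and 3 alone the limma test called 0 of 75, with 6 (8.0%) at an unadjusted p under 0.05, against 8.03% of all genes.

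The members did not all follow one pattern over the 15 libraries. Their common level was taken as the mean of the standardized log2 values of the 10 genes, which each member enters. Pearson's r with it was 0.972 for Mgll, 0.950 for Plin1, 0.943 for Lipe, 0.941 for Cidec and 0.933 for Pnpla2. It was 0.762 for Abhd5, 0.740 for G0s2 and 0.659 for Plin4, and 0.112 for Plin2 and 0.045 for Plin5. Of 6571 other genes with a mean of at least 10 FPKM, those most like the common level were Eif4ebp1 (r = 0.966, Spearman's rho = 0.950), Rab34, Adipor2, Caprin1 and Por, the last at r = 0.955. Eif4ebp1, which encodes a repressor of translation, averaged 265 ± 29.3 FPKM in BPS and 213 ± 44.9 FPKM in vehicle (SD, n = 7 and 8; log2 change 0.34, limma adjusted p = 0.156). All points share the library and its scaling, so these correlations describe the 15 libraries and carry no test.

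Of 14 tested genes that neighbour or overlap a member, the limma test called 1, Lrg1, and it called 0.411% of all genes tested. Lrg1, a secreted leucine-rich glycoprotein gene, lies 2081 bases from Plin5 and averaged 134.5 ± 33.9 FPKM in BPS and 71.8 ± 14.5 FPKM in vehicle (SD, n = 7 and 8). It rose, with a log2 change of 0.89 ± 0.158 (limma SE, adjusted p = 0.0365), and all 7 BPS libraries lay above all 8 vehicle libraries, as 0.576% of all genes were separated in one direction or the other. The call held in 5 of 15 fits with 1 library left out, whose adjusted p ran from 0.0205 to 0.0913. Without BPS replicates 4, 5, 6 and 8 the change was 0.74 (adjusted p = 0.231), and without replicates 1, 2 and 3 it was 1.01 (adjusted p = 0.0041). The fit without BPS replicates 1, 2 and 3 called 23.2% of all genes tested. The call of Lrg1 was also lost without vehicle replicates 2, 6 and 8 (0.70, adjusted p = 0.325), with the muscle covariate (adjusted p = 0.121), with the Y-linked covariate (adjusted p = 0.172) and with no filter on low values (adjusted p = 0.0531). Hsd11b1, the gene nearest to G0s2 on one side, encodes an enzyme that regenerates active glucocorticoid and had a log2 change of 1.03 (limma adjusted p = 0.107). That of Hsd11b1 was 0.63 without BPS replicates 4, 5, 6 and 8 (adjusted p = 0.717) and 1.33 without replicates 1, 2 and 3 (adjusted p = 0.0210). The other 12 neighbours had log2 changes from -0.13 to 0.57, with 9 positive, and adjusted p of at least 0.120. On the opposite strand Hdgfl2 overlaps Plin4, at 19.6 FPKM in BPS and 21.3 FPKM in vehicle, and Lamb3 overlaps G0s2, at 0.603 FPKM in BPS and 0.476 FPKM in vehicle. Annotated antisense or uncharacterized genes that are not analysed here overlap Lipe, Mgll and Abhd5. No source used here gives the strandedness of the libraries, so reads of overlapping genes on opposite strands cannot be told apart.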

How the data were processed

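The 10 members and the pathway and marker lists were chosen with earlier results of these data known. Per the labels' protocols, TRIzol RNA was enriched for poly(A) transcripts and copied with random primers. HISAT2 2.1.0, Bowtie2, RSEM 1.3.1, DESeq2 1.4.5 and the build GRCm38.p6 are named in the submitters' processing notes. The deposited values are FPKM to 2 decimals, scaled by the authors to transcript length and library total, so abundant transcripts of other cells lower all other values. The authors' deposited table also holds a log2 ratio, a p-value and a q-value per gene, used only where named. No counts were used and the depth is unknown: summed FPKM was 756556 to 920855 per library, and low values gave no clear common step (at most 6.19% of genes shared one ratio to vehicle replicate 1).

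FPKM + 1 was log2-transformed, and the 12156 genes that reached 1 FPKM in 7 or more libraries were tested with limma 3.58.1 in R 4.3.3 (intensity trend, robust spread, Benjamini-Hochberg, threshold 0.05). This scale understates the change of low genes. Ratios were tested by exact permutation, and promoters were searched in the RefSeq table of GRCm38.p6. Named genes were all members, the 3 genes of smallest p of each pathway list, the 5 genes most like the members, and genomic neighbours. Alternatives were other normalizations, pseudocounts, filters and spread settings, a replicate block, muscle and Y-linked covariates (the Y-linked one added after the data were seen), and sets of libraries or single libraries left out. No pair of libraries correlated above 0.994, and no library was taken as a duplicate.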

Additional observations from a re-analysis of the deposited data

How the results depend on the processing

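The log2 changes of the members kept their sign and their side of the threshold in 132 values under other settings, while 5 came to pass the threshold and 3 changed sign, and in 149 values with 1 library left out, while 1 changed sign. The changes of sign were Plin4 without BPS replicates 4, 5, 6 and 8 (-0.0093), and Plin5 in that fit (0.57), after adjustment for Y-linked transcripts (0.39) and without BPS replicate 4 (0.13); Plin5 ran from -0.312 to 0.126 with 1 library left out. After the Y-linked adjustment the changes were also smaller in size for Cidec (0.51), Pnpla2 (0.48), Plin4 (0.20), Abhd5 (0.11), Lipe (0.23), Mgll (0.22), Plin1 (0.37) and Plin2 (-0.20). That of G0s2 was larger (0.84, limma adjusted p = 0.233). Hsd11b1, beside G0s2, passed with the replicate block (1.15, limma adjusted p = 0.0236). The number of members called higher was 0 with all libraries, 4 without BPS replicates 1, 2 and 3, and 1 with the replicate block (Cidec, 0.77, limma adjusted p = 0.0298), and 0 in every fit with 1 library left out. The replicate numbers share no stated litter or batch: over 7 numbers, same-numbered libraries correlated at -0.42 to 0.58, with 4 of 7 over 0.1 and 2 of 7 best with their own number, so they were not treated as pairs. The pathway lists had 11 genes called higher and 6 lower without BPS replicates 1, 2 and 3, and 0 of either in every fit with 1 library left out. The cause of these differences was not tested.

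Of all genes, limma called 42 higher and 8 lower with all libraries. The counts of higher and lower calls were 56 and 21 with median scaling, 15 and 2 with a pseudocount of 5, 8 and 1 with no filter, 24 and 5 with a filter of 5 FPKM, 34 and 4 with the replicate block, 1 and 1 with the muscle covariate, and 2 and 1 with the Y-linked covariate. They were 32 and 1 without BPS replicates 4, 5, 6 and 8, 2081 and 744 without BPS replicates 1, 2 and 3, and 0 and 0 without vehicle replicates 2, 6 and 8, where 1440 genes had an unadjusted p under 0.05. With 1 library left out they ran from 0 to 61 higher and from 1 to 27 lower. The higher count was 0 without BPS replicate 8 (2112 genes at an unadjusted p under 0.05) or vehicle replicate 8 (2420 genes), and 1 to 12 without BPS replicate 3, 4, 5 or 6 or vehicle replicate 2, 3, 5, 6 or 7. The median change of all genes stayed within 0.0043 to 0.0681.

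The Plin2 to Plin1 difference no longer passed the threshold without BPS replicates 4, 5, 6 and 8 (-0.35, exact permutation, adjusted p = 0.242). It also did not pass without vehicle replicates 2, 6 and 8 (-0.87, exact permutation, adjusted p = 0.136). With 1 library left out it was -1.16 to -0.80 (exact permutation, adjusted p = 0.0050 to 0.0385). The G0s2 to Pnpla2 difference was -0.33 without BPS replicates 1, 2 and 3 and -0.0743 to 0.19 with 1 library left out, negative without BPS replicate 2 or 3 or vehicle replicate 3 or 4. The Abhd5 to Pnpla2 difference was -0.35 to -0.20 with 1 library left out and passed the threshold without vehicle replicate 3 (exact permutation, adjusted p = 0.0498). Depth is unknown, so no limit of detection is given.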
